A study of Mus musculus with 32 samples.

Results

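The matrix metalloproteinases, the secreted ADAMTS proteases and the tissue inhibitors of metalloproteinases (TIMPs) were described in the lungs of C57BL/6 mouse pups. Members were chosen by gene symbol alone (Mmp, Adamts or Timp followed by a number), leaving out Mmp8, Mmp9 and Mmp12. This gave 43 of the 46165 gene records: 20 metalloproteinases, 19 ADAMTS proteases and 4 TIMPs. RNA from whole perfused lung was sequenced in 32 libraries, in 8 groups of 4. The 5 groups taken at postnatal day 14, under isoflurane, were pups given saline every day from day 1 to day 13 (25 µl/g), pups given the scrambled LNA oligonucleotide Scrambled 1 or Scrambled 2 in nuclease-free water on days 1 and 3 (10 mg/kg), pups given that water alone on days 1 and 3 (10 µl/g), and untreated pups. The 3 groups taken at day 6, under pentobarbital, were pups given tamoxifen in the oil Miglyol on days 1 and 2 (0.4 mg in 25 µl), Miglyol alone (25 µl) or saline (25 µl) on the same days. All injections were intraperitoneal. The labels name no altered allele in any group, and every treatment is one used as a control or inducer in other experiments. No group was taken at both ages, so age cannot be told apart from the injections and the anaesthetic. Nothing ties a library to a separate animal in the labels, so p-values here reflect only how far these libraries varied, part of which could be technical.

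Metalloproteinases cut collagens, elastin and other matrix and cell-surface proteins. Most are made as inactive precursors, and the membrane-anchored Mmp14 activates the precursor of the gelatinase Mmp2. ADAMTS proteases have narrower tasks, such as trimming procollagens, cutting versican and aggrecan, or binding to fibrillin microfibrils. TIMPs bind and block these enzymes, and Timp2 also takes part in the activation of Mmp2 by Mmp14. In the growing lung, matrix turnover of this kind accompanies the division of the distal airspaces into alveoli.

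Each library held 7918537 to 12443221 reads in exons. Values below are exon read counts scaled to library size (CPM) and adjusted between libraries by TMM, with the SD over 4 libraries. Levels of different genes are compared in TPM, which is also divided by transcript length, while CPM and reads are compared between libraries for 1 gene at a time. The lung markers of the epithelium, endothelium and mesenchyme were high in every library, with Sftpc between 7525 and 12771 CPM. Water replicate 3 stood apart: the 6 skeletal muscle markers summed to 233 CPM there, against 4.62 to 26.6 CPM in the other 31 libraries, and the cartilage markers to 77.7 CPM, against 1.5 to 14.5 CPM. Counts that rest on the water group are therefore also given without it. Reads in introns were 10.0 ± 1.04% of gene reads in daily saline lungs, and group means lay between 12.4% and 15.1% in the other 7 groups. Xist, an RNA of the inactive X chromosome of female cells, was at 0.298 to 0.700 CPM in all 4 water libraries, while the highest library of each other group had at least 413 CPM, so that a low Xist level runs with the water group in every comparison with it.

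Of the 20 metalloproteinase genes, 8 lie close together on chromosome 9, between positions 7272514 and 7699416 of the files, whose gene starts match RefSeq GRCm38.p6 within 5000 bases for all 43 members. The promoters of 6 of them are shown because they share these letters, while 3 of the 6 genes had no read in any library. Each line gives the 100 bases before the RefSeq gene start, 5′ to 3′ on the gene's strand, on GRCm38.p6. The capitals mark the AP-1 letters TGAGTCA, on either strand, and the letters TATAAA. The windows are chr9:7445722-7445821 for the stromelysin Mmp3, chr9:7272414-7272513 for the collagenase Mmp13, chr9:7502242-7502341 for Mmp10, chr9:7691990-7692089 for matrilysin Mmp7 and chr9:7464041-7464140 for the collagenase Mmp1a, all on the plus strand, and chr9:7388027-7388126 on the minus strand for Mmp1b.
Mmp3: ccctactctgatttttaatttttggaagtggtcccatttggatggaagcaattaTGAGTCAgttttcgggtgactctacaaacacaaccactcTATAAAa
Mmp13: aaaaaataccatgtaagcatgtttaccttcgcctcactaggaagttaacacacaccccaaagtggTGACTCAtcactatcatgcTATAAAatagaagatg
Mmp10: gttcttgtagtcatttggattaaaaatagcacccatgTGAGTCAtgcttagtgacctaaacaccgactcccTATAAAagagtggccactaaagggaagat
Mmp7: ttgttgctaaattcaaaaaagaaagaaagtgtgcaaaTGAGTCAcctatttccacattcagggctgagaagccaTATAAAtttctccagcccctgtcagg
Mmp1a: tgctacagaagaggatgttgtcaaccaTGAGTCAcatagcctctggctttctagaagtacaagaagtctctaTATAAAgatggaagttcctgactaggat
Mmp1b: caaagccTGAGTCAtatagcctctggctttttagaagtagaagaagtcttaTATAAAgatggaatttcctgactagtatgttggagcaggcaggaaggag
Promoter windows of 30 of the 43 members were searched. In the 250 bases before the start, TGAGTCA or its reverse complement stood in 6 of the 30, the 6 shown, and in 5.16% of 27025 genes. TATAAA stood in 9 of the 30, which are the same 6 with Adamts1, Mmp20 and Mmp21, and in 14.3% of all genes. The palindromic consensus of the oestrogen response element, searched on both strands because tamoxifen binds oestrogen receptors, stood in 0 of the 30 and in 0.0666% of all genes. With letters this rare, a count of 0 in 30 says nothing about the members. Adamts5, Adamts8 and Adamts4 had no window and were not searched. At day 14 Mmp3 averaged 10.2 ± 2.38 TPM and Mmp13 1.13 ± 0.584 TPM (SD, n = 20). Mmp10 had 2 reads in all 32 libraries together, and Mmp1a, Mmp1b and Mmp7 had none. A count of 0 allows up to 3 reads, which is 0.235 to 0.383 CPM depending on the library, for counting error only.

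A member was called expressed where its mean reached 1 CPM in at least 1 of the 8 groups. By this measure 33 of the 43 were expressed: 12 of 20 metalloproteinases, 18 of 19 ADAMTS proteases and 3 of 4 TIMPs. With a limit of 0.5 CPM there were 36, the 3 further ones being Timp4, Mmp27 and Mmp24, and with a limit of 2 CPM there were 30. Below 0.5 CPM lay Mmp1a, Mmp1b, Mmp7, Mmp10, Mmp20 (the protease of tooth enamel), Mmp21 and Adamts16. Timp2, Adamts10, Timp3, Mmp2 and Mmp14 held 61.7% of the reads of all members, a share that also depends on transcript length.

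**Figure D1:**
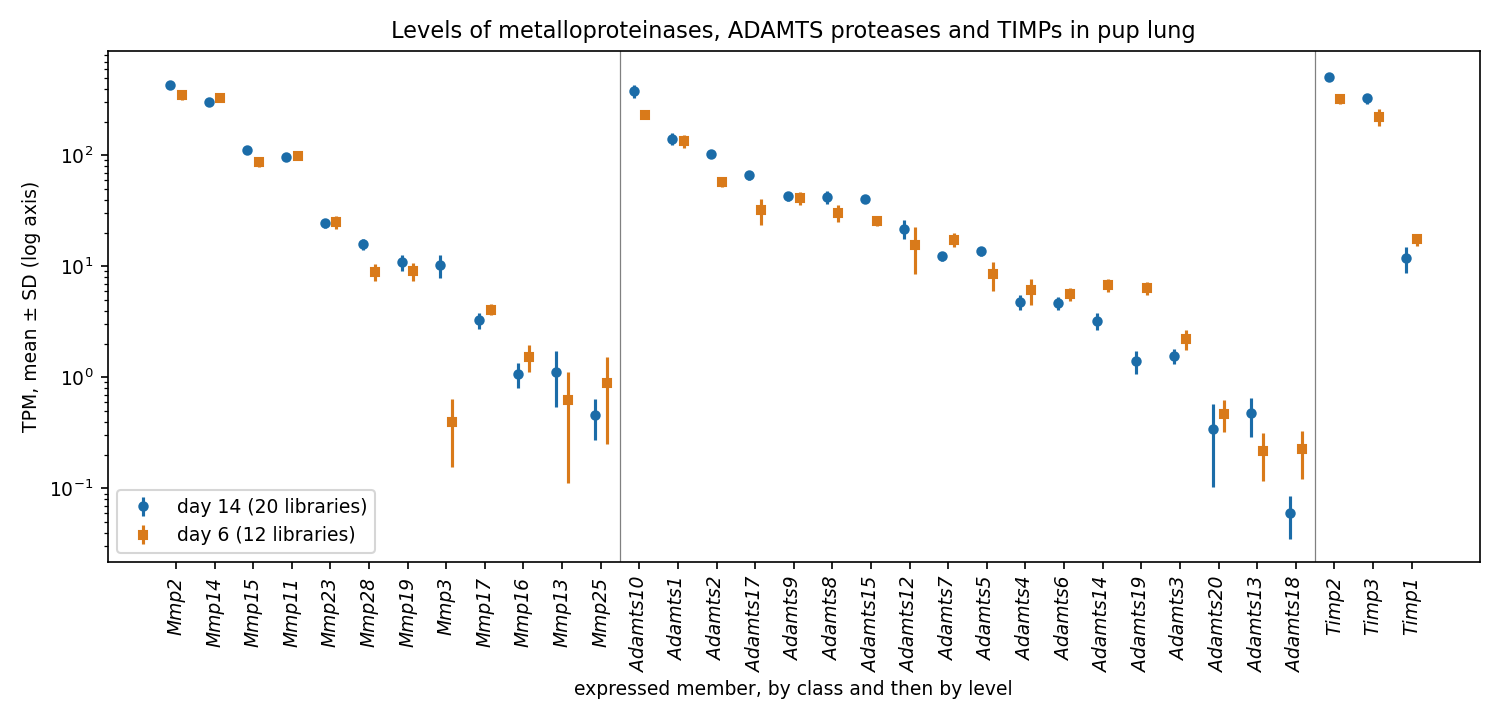
TPM of the 33 expressed members on a log axis, as mean and SD over the 20 libraries of day 14 (blue circles) and the 12 of day 6 (orange squares), with metalloproteinases, ADAMTS proteases and TIMPs separated by grey lines. Mmp2, Mmp14, Adamts10, Timp2 and Timp3 lie above 200 TPM at both ages, and Mmp3 has the widest gap between the ages.

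Among the metalloproteinases, the gelatinase Mmp2 and its activator Mmp14 were the most abundant. Mmp2 averaged 457 ± 9.89 TPM in daily saline, 418 ± 22.5 in Scrambled 1, 416 ± 14.8 in Scrambled 2, 412 ± 12.3 in water and 436 ± 22.2 in untreated lungs of day 14 (SD, n = 4 each). At day 6 it averaged 347 ± 38.2 TPM in tamoxifen, 324 ± 19.99 in Miglyol and 379 ± 11.1 in saline lungs. Mmp14 stood at 301 ± 17.1 TPM over the 20 libraries of day 14 and 328 ± 28.1 TPM over the 12 of day 6. The next were the membrane-anchored Mmp15 with a mean of 103 TPM over all 32 libraries and stromelysin-3, Mmp11, with 96.99 TPM. By the same mean over 32 libraries, Mmp23, Mmp28 (epilysin) and Mmp19 lay between 10.2 and 24.8 TPM. Mmp3, Mmp17, Mmp16, Mmp13 and Mmp25 lay below 7 TPM, but the mean of Mmp3 joins 10.2 TPM at day 14 and 0.398 TPM at day 6. Of the collagenase genes within the rule, Mmp13 did not exceed a group mean of 1.56 CPM, and Mmp1a and Mmp1b had no read.

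The ADAMTS proteases were led by Adamts10, whose protein binds fibrillin. Adamts10 averaged 332 ± 26.9 TPM in daily saline, 425 ± 49.4 in Scrambled 1, 360 ± 41.0 in Scrambled 2, 392 ± 22.2 in water and 383 ± 50.5 in untreated lungs of day 14. The values at day 6 were 225 ± 8.46 TPM in tamoxifen, 218 ± 6.44 in Miglyol and 248 ± 3.28 in saline lungs. Adamts1, which cuts versican and aggrecan, followed with a mean of 139 TPM over the 32 libraries. The procollagen N-proteinase Adamts2 had 85.4 TPM, while the related Adamts14 and Adamts3 had 4.56 and 1.81 TPM. Adamts17, which like Adamts10 is mutated in Weill-Marchesani syndrome in people, had 53.3 TPM. The versican-cleaving Adamts9, Adamts8, Adamts15, Adamts5 and Adamts4 spread from 42.2 down to 5.27 TPM. Adamts13, which cuts von Willebrand factor and is known from liver stellate cells, stood at 0.377 TPM, Adamts20 at 0.390 TPM and Adamts18 at 0.122 TPM. The only unexpressed member of this family, Adamts16, had 14 reads over the 32 libraries.

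Among the inhibitors, Timp2 had the highest mean TPM of all 43 members over the 32 libraries and at day 14. At day 6 its mean of 319 TPM lay below those of Mmp2 (350 TPM) and Mmp14 (328 TPM). Timp2 averaged 532 ± 8.44 TPM in daily saline, 499 ± 36.9 in Scrambled 1, 530 ± 21.7 in Scrambled 2, 491 ± 25.3 in water and 508 ± 28.1 in untreated lungs of day 14. At day 6 it averaged 293 ± 8.21 TPM in tamoxifen, 313 ± 16.8 in Miglyol and 351 ± 10.1 in saline lungs. Timp3, which stays bound to the matrix and also blocks ADAMTS proteases, had 288 TPM over the 32 libraries. Timp1, an inhibitor known to be induced in inflamed tissue, had 14.0 TPM. Timp4 did not reach 1 CPM in any group mean, the highest being 0.817 CPM in tamoxifen lungs.

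For 10 members under 90% of the exon reads were unique to the gene. Timp3 lies inside Syn3 on the opposite strand, and only 4.2% of its reads were unique. Timp1 lies inside Syn1 in the same way with 48.9% unique reads, and Timp4 inside Syn2 with 68.4%. Mmp19 overlaps the end of Tmem198b on the opposite strand and had 40.0% unique reads. The kit was stranded, but whether the counting used the strand is not given in the sources used here, so values of these 4 genes are uncertain. The others under 90% were Mmp2 (88.7%), Adamts16 (64.3%), Mmp21 (57.7%), Mmp24 (44.4%), Mmp27 (32.3%) and Mmp20, whose 1 read was shared. Values of Mmp24 and Mmp27 thus rest mostly on shared reads.

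The groups of day 14 asked what the control injections themselves do to the growing lung. Comparisons used edgeR's quasi-likelihood test on the counts of all genes, with Benjamini-Hochberg adjusted p under 0.05 as the threshold. Across the 5 groups the levels of the members were close together. For 20 members every group mean was at least 10 CPM, and their highest group mean was a median of 1.15 times the lowest. The widest such ratio was 1.44, for Adamts12, and 16 of the 20 lay below 1.2.

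In daily saline lungs against untreated lungs 0 of the 31 tested members passed in edgeR, where 0.233% of all genes did. An unadjusted p under 0.05 was found for 4 members and for 9.24% of all genes. Among the 114 genes that DESeq2 called were 2 members. These were Timp3, with 620, 725, 633 and 660 CPM in daily saline lungs and 526, 543, 567 and 578 CPM in untreated lungs, and the membrane-anchored Mmp15. The 4 daily saline lungs lay above the 4 untreated ones for Timp3. Its log2 fold change was 0.25 (SE 0.07, edgeR adjusted p = 0.156, DESeq2 adjusted p = 0.0241). Mmp15 averaged 198 ± 6.74 CPM in daily saline and 173 ± 8.51 CPM in untreated lungs (log2 fold change 0.20, SE 0.06, edgeR adjusted p = 0.168, DESeq2 adjusted p = 0.0242). Adamts12, the third by p, averaged 63.0 ± 4.29 CPM in daily saline and 49.6 ± 10.4 CPM in untreated lungs (log2 fold change 0.34, SE 0.14, edgeR adjusted p = 0.454). The share of intronic reads, 10.0 ± 1.04% in daily saline and 12.7 ± 1.95% in untreated lungs, moved with these differences. With that share as a covariate, chosen after the data had been seen, 0 members and 0 genes in all passed, where 33 genes had passed without it. The log2 fold change was then 0.31 for Timp3 (edgeR adjusted p = 0.374), 0.16 for Mmp15 (adjusted p = 0.505) and 0.57 for Adamts12 (adjusted p = 0.458).

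In water-injected lungs against untreated lungs 0 of 31 members passed in edgeR, against 0.0494% of all genes, and DESeq2 called 0. An unadjusted p under 0.05 was found for 4 members and for 8.09% of all genes. The smallest p belonged to Adamts8, a versican-cutting protease first described as an inhibitor of vessel growth. It had 51.8, 57.5, 52.4 and 60.8 CPM in water lungs and 63.2, 72.2, 65.6 and 70.6 CPM in untreated lungs. The groups did not overlap, and the log2 fold change was -0.29 (SE 0.10, edgeR adjusted p = 0.398). Adamts2 averaged 343 ± 9.26 CPM in water and 372 ± 15.9 CPM in untreated lungs, and Mmp3 5.48 ± 0.790 and 7.37 ± 1.99 CPM in the same groups, with overlapping values. Without water replicate 3 the count was again 0.

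Daily saline against water compared the longest course of injections with a short one. Here 1 of 31 members passed, where 2.74% of all genes did and 1.04% passed as higher. An unadjusted p under 0.05 in edgeR was found for 11 members and for 17.7% of all genes. The member called was the procollagen N-proteinase Adamts2, with 379, 391, 389 and 406 CPM in daily saline lungs and 334, 356, 340 and 342 CPM in water lungs. The groups did not overlap, and the log2 fold change was 0.19 (SE 0.05, edgeR adjusted p = 0.0493). DESeq2 called 582 genes in all, with 3 members, Adamts2 among them (adjusted p = 0.00621). The call was lost when any 1 of the 8 libraries was left out, among them water replicate 3 (edgeR adjusted p = 0.0854), and also with the intronic read share (adjusted p = 0.139) or Xist (adjusted p = 0.0883) as a covariate, without the filter on low counts (adjusted p = 0.0907) and from the 8 samples alone (adjusted p = 0.0533). Mmp2 averaged 581 ± 14.5 CPM in daily saline and 508 ± 27.8 CPM in water lungs (log2 fold change 0.19, SE 0.05, edgeR adjusted p = 0.0526). Timp2 averaged 764 ± 7.85 CPM in daily saline and 683 ± 24.2 CPM in water lungs (log2 fold change 0.16, SE 0.05, edgeR adjusted p = 0.0857). The intronic share was 10.0 ± 1.04% in daily saline and 14.1 ± 1.42% in water lungs. Xist stood at 0.534 to 413 CPM in daily saline and at 0.298 to 0.700 CPM in water lungs.

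The 2 scrambled oligonucleotides, controls for microRNA inhibitors, were set against their solvent and each other. Scrambled 1 against water gave 0 of 31 members in edgeR, where 0.12% of all genes passed. DESeq2 called 0 as well, but it gave no adjusted p for Mmp3, Adamts4 and Adamts3. In edgeR 11% of all genes and 7 members had an unadjusted p under 0.05. Mmp3 led them, with 9.83, 6.85, 8.25 and 9.73 CPM in Scrambled 1 lungs and 6.13, 5.86, 5.60 and 4.35 CPM in water lungs. The groups did not overlap, but the log2 fold change of 0.66 (SE 0.19) did not pass (edgeR adjusted p = 0.180). Adamts4 averaged 5.72 ± 0.635 CPM in Scrambled 1 and 7.43 ± 0.576 CPM in water lungs, and Adamts3 4.24 ± 0.595 and 5.49 ± 0.552 CPM in the same groups.

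Scrambled 2 against water likewise gave 0 of 31 members in edgeR, where 0% of all genes passed, and DESeq2 called 0. An unadjusted p under 0.05 was found for 5.32% of all genes and for 3 members. They were Adamts13, with 1.33 ± 0.571 CPM in Scrambled 2 and 0.632 ± 0.213 CPM in water lungs, Timp2, with 750 ± 25.4 and 683 ± 24.2 CPM, and Mmp3, with 7.80 ± 1.47 and 5.48 ± 0.790 CPM. Their edgeR adjusted p was 0.920. Both oligonucleotide comparisons share the water lungs, whose Mmp3 level was the lowest of the 5 groups. Without water replicate 3 both counts stayed at 0.

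Scrambled 1 against Scrambled 2 called 0 of 31 members in edgeR, where 0.205% of all genes passed. DESeq2 called 0 as well, but it gave no adjusted p for Mmp16. In edgeR 10.9% of all genes and 7 members had an unadjusted p under 0.05. Adamts5, the main aggrecan-cutting protease of mouse cartilage, had 53.0, 50.6, 57.5 and 48.0 CPM in Scrambled 1 lungs and 47.1, 45.3, 47.3 and 39.3 CPM in Scrambled 2 lungs. The groups did not overlap (log2 fold change 0.22, SE 0.08, edgeR adjusted p = 0.289). Adamts10 averaged 702 ± 72.5 CPM in Scrambled 1 and 593 ± 88.1 CPM in Scrambled 2 lungs, and Mmp16 1.63 ± 0.347 and 2.47 ± 0.532 CPM, both with overlapping groups.

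At day 6, tamoxifen, which is injected into newborn pups to switch on inducible Cre, was compared with its oil vehicle, and both with saline. All 3 comparisons were fitted over the same 12 libraries and share groups pairwise. In tamoxifen lungs against Miglyol lungs 4 of 30 tested members passed, where 5.68% of all genes did, 3.71% as higher and 1.96% as lower: Adamts8, Adamts2 and Mmp25 rose, and Adamts5 fell. Adamts5 (chromosome 16, positions 85858157 to 85902374, minus strand, 11 exons) had 16.4, 19.8, 19.95 and 23.9 CPM in tamoxifen lungs and 36.2, 38.7, 36.5 and 28.6 CPM in Miglyol lungs. All tamoxifen lungs lay below all Miglyol lungs. The log2 fold change was -0.80 (SE 0.11, edgeR adjusted p = 0.000378). Adamts8 (chromosome 9, positions 30942563 to 30962858, plus strand, 9 exons) went the other way, with 53.7, 61.3, 52.3 and 50.7 CPM in tamoxifen lungs and 37.7, 39.1, 41.1 and 39.8 CPM in Miglyol lungs. Its groups did not overlap either, and the log2 fold change was 0.47 (SE 0.08, edgeR adjusted p = 0.00221). Both calls held in each of the 8 fits that left out a library and in each of the 8 alternative settings.

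The other calls were less stable. Adamts2 averaged 227 ± 9.85 CPM in tamoxifen and 192 ± 16.04 CPM in Miglyol lungs (log2 fold change 0.24, SE 0.06, edgeR adjusted p = 0.0287), and was called in 4 of the 8 fits that left out a library. Mmp25, a membrane-anchored metalloproteinase known from neutrophils, had 2.71, 1.83, 2.93 and 0.700 CPM in tamoxifen lungs and 0.627, 0.651, 0.543 and 0.932 CPM in Miglyol lungs. Its log2 fold change was 1.56 (SE 0.40, edgeR adjusted p = 0.0275). Tamoxifen replicates 1 to 3 were above all Miglyol lungs and replicate 4 was among them, with 7 to 33 reads behind the tamoxifen values. The 4 neutrophil markers S100a8, S100a9, Retnlg and Ly6g moved with it: they summed to 197 to 715 CPM in tamoxifen, 93.3 to 132 CPM in Miglyol and 46.5 to 56.7 CPM in saline lungs, and the lowest tamoxifen lung was again replicate 4. Ly6g was at 0 in at least 1 saline lung. The 3 mesothelial markers also separated the groups, at 221 to 229 CPM in tamoxifen and 150 to 199 CPM in Miglyol lungs, as did the 4 macrophage markers, at 114 to 167 and 67.5 to 82.8 CPM. The part of neutrophils in the Mmp25 difference was not tested, and in bulk RNA fewer cells of a type cannot be told apart from less RNA per cell. Leaving out tamoxifen replicate 1 or 3, or Miglyol replicate 1, 2 or 3, ended the Mmp25 call, with edgeR adjusted p up to 0.0961. The count of members was 2 without tamoxifen replicate 1 or 3 or Miglyol replicate 2, and 7 without tamoxifen replicate 2.

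**Figure D2:**
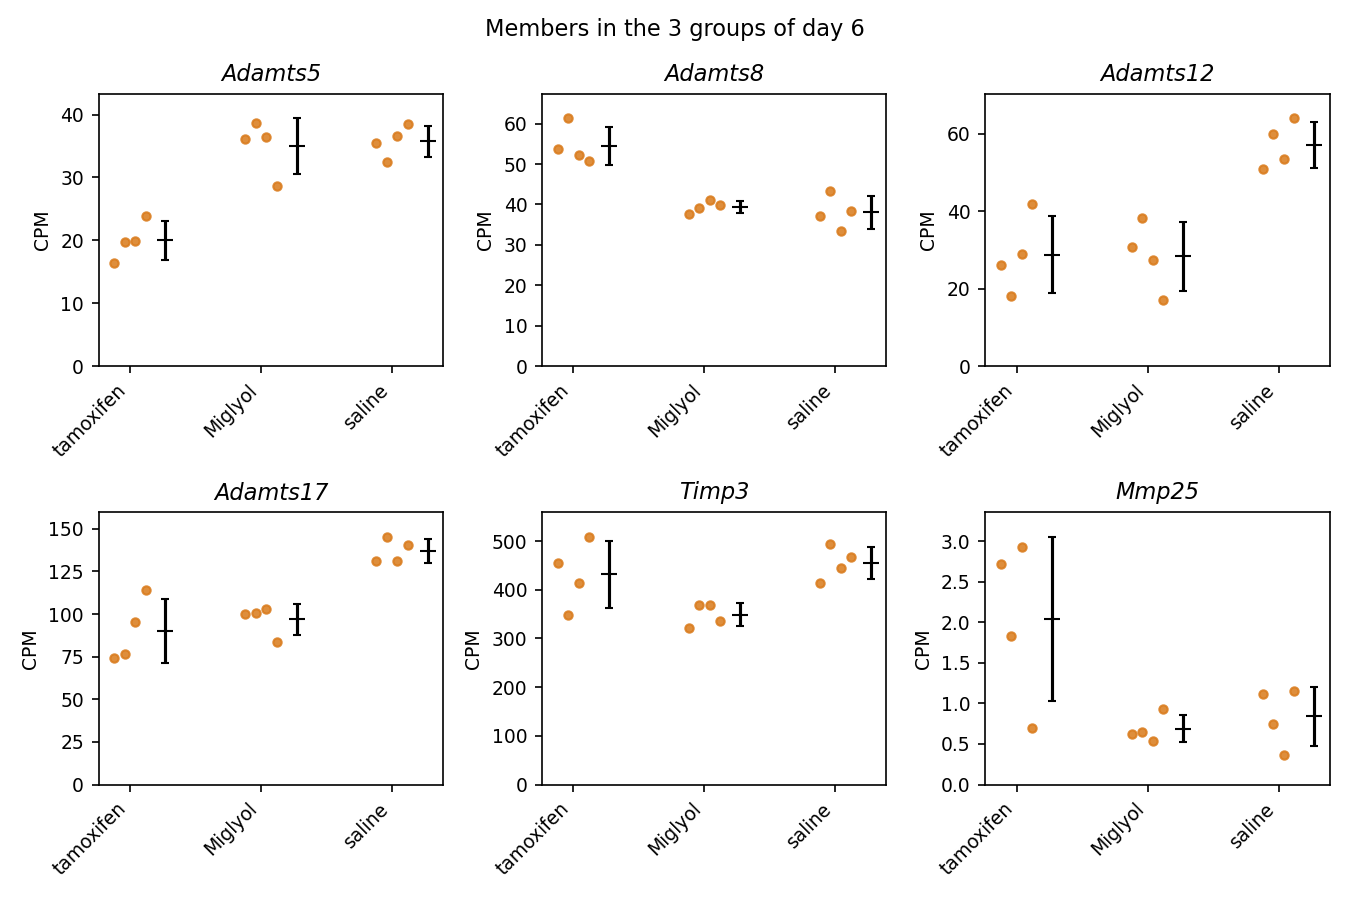
CPM of 6 members in tamoxifen, Miglyol and saline lungs of day 6, with 1 point per library and the mean and SD (n = 4) beside the points. Adamts5 is low and Adamts8 high in tamoxifen lungs, Adamts12 and Adamts17 are highest in saline lungs, Timp3 has its lowest mean in Miglyol lungs, and 3 of 4 tamoxifen lungs lie high for Mmp25.

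In Miglyol lungs against saline lungs 5 of 30 members passed, all lower, where 10.6% of all genes passed and 7.29% passed as lower. Adamts12, a protease that cuts cartilage oligomeric matrix protein, changed most, with 30.7, 38.3, 27.2 and 17.0 CPM in Miglyol lungs and 50.9, 60.0, 53.3 and 63.9 CPM in saline lungs. The groups did not overlap, and the log2 fold change was -1.02 (SE 0.26, edgeR adjusted p = 0.0346). Adamts17 had 100.2, 100.3, 103 and 83.7 CPM in Miglyol lungs and 131, 145, 131 and 140.5 CPM in saline lungs, again without overlap (log2 fold change -0.51, SE 0.11, edgeR adjusted p = 0.0146). Timp3 averaged 349 ± 23.9 CPM in Miglyol and 455 ± 33.8 CPM in saline lungs (log2 fold change -0.39, SE 0.09, edgeR adjusted p = 0.0185). With unique reads alone its log2 fold change was -0.82 (edgeR adjusted p = 0.0349). Adamts3 averaged 5.79 ± 0.721 CPM in Miglyol and 8.12 ± 0.800 CPM in saline lungs (log2 fold change -0.49, edgeR adjusted p = 0.0296). Adamts4 averaged 8.22 ± 1.22 CPM in Miglyol and 11.1 ± 1.30 CPM in saline lungs, with overlapping groups (log2 fold change -0.43, edgeR adjusted p = 0.0490).

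Over all 30 members the median log2 fold change in Miglyol lungs was -0.11, against 0.02 over all genes tested. Of the members 23 of 30 lay below 0, while 54% of all genes lay above 0. The members were read in the same lungs, so they are not 30 separate observations. Intronic reads made up 13.1 ± 1.25% in Miglyol and 15.1 ± 0.898% in saline lungs. With that share as a covariate, chosen after the data had been seen, 0 members and 2 genes in all passed. The 5 members kept negative log2 fold changes, between -0.53 and -0.24. Markers of cell types moved with the shift too. The 7 epithelial markers were all higher on average in Miglyol lungs and summed to 16181 to 20198 CPM there, against 14106 to 15330 CPM in saline lungs. The neutrophil markers, also 4 of 4 higher, separated the groups as given above. Of the 9 endothelial and mesenchymal markers 2 were higher on average in Miglyol lungs and 4 were lower in every Miglyol lung than in any saline lung, with sums of 4167 to 4483 CPM in Miglyol and 4235 to 4850 CPM in saline lungs. The part of these cell types in the lower member values was not tested. Leaving out Miglyol replicate 4 or saline replicate 4 also gave 0 calls, leaving out saline replicate 2 gave 1, and leaving out Miglyol replicate 1 or 3 or saline replicate 3 gave 2. Every one of the 5 calls was lost in at least 2 of the 8 such fits.

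In tamoxifen lungs against saline lungs, a contrast of drug and oil together, 11 of 30 members passed, where 23.7% of all genes did, 11.3% as higher and 12.3% as lower. Adamts5, Adamts17, Adamts4, Adamts1, Adamts7, Adamts12, Timp2 and Mmp14 were lower, and Adamts8, Mmp25 and Timp1 were higher. Adamts5 had 16.4 to 23.9 CPM in the tamoxifen lungs given above and 35.4, 32.5, 36.5 and 38.5 CPM in saline lungs, with no overlap (log2 fold change -0.84, SE 0.11, edgeR adjusted p = 8.18e-05). For scale, Adamts5 averaged 35.0 ± 4.43 CPM in Miglyol and 35.7 ± 2.52 CPM in saline lungs. Adamts8 averaged 54.5 ± 4.70 CPM in tamoxifen and 38.1 ± 4.08 CPM in saline lungs (log2 fold change 0.52, SE 0.08, edgeR adjusted p = 0.000409). Adamts17 had 74.3, 76.5, 95.5 and 113.9 CPM in tamoxifen lungs, all below the lowest saline lung at 131 CPM (log2 fold change -0.61, SE 0.11, edgeR adjusted p = 0.00161). Adamts4 averaged 7.08 ± 0.870 CPM in tamoxifen and 11.1 ± 1.30 CPM in saline lungs (log2 fold change -0.65, SE 0.14, edgeR adjusted p = 0.00312). These 4 calls held in each of the 8 fits that left out a library and in each of the 8 alternative settings.

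The epithelial markers summed to 18537 to 21090 CPM in tamoxifen and 14106 to 15330 CPM in saline lungs, and the mesothelial ones to 221 to 229 and 149 to 160 CPM. The macrophage markers summed to 114 to 167 and 66.6 to 91.6 CPM, and the lymphocyte markers to 39.8 to 52.9 and 30.1 to 36.2 CPM. Of the 9 endothelial and mesenchymal markers 4 were higher on average in tamoxifen lungs. Another 4 were lower in every tamoxifen lung than in any saline lung. Their sums overlapped, at 3856 to 4459 CPM in tamoxifen and 4235 to 4850 CPM in saline lungs. The part of these cell types in the member differences was not tested.

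The remaining 7 calls were lost under at least 1 of the settings tried. Adamts12 averaged 28.8 ± 9.91 CPM in tamoxifen and 57.0 ± 5.97 CPM in saline lungs (log2 fold change -0.99, SE 0.26, edgeR adjusted p = 0.0204), and its tamoxifen and Miglyol values lay in the same range. Adamts1 averaged 241 ± 19.1 CPM in tamoxifen and 288 ± 16.4 CPM in saline lungs, and Adamts7 36.4 ± 2.91 and 43.8 ± 2.31 CPM, both without overlap. Timp2 averaged 431 ± 8.07 CPM in tamoxifen and 481 ± 7.11 CPM in saline lungs, and Mmp14 317 ± 6.02 and 354 ± 15.03 CPM, log2 fold changes of -0.16 each (SE 0.05, edgeR adjusted p = 0.0289 for Timp2 and 0.0329 for Mmp14). Timp1 averaged 6.92 ± 0.655 CPM in tamoxifen and 5.17 ± 0.545 CPM in saline lungs (log2 fold change 0.42, SE 0.14, edgeR adjusted p = 0.0338) and was not called from unique reads alone. Mmp25 averaged 2.04 ± 1.01 CPM in tamoxifen and 0.842 ± 0.365 CPM in saline lungs (log2 fold change 1.23, SE 0.40, edgeR adjusted p = 0.0328), beside the neutrophil marker sums already given. With the intronic share as a covariate 5 members passed, namely Adamts5, Adamts8, Adamts17, Adamts4 and Mmp14, and 5 passed without saline replicate 4. The count was 6 without saline replicate 2 or tamoxifen replicate 1, and 7 without tamoxifen replicate 3.

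Most members differed between the ages. The mean of the 5 groups of day 14 was compared with the mean of the 3 groups of day 6, and 28 of 33 tested members passed, where 61.4% of all genes did. Of these, 16 were higher and 12 lower at day 14, against 30% and 31.3% of all genes. Mmp3, Mmp13 and Adamts13 did not pass the filter on low counts among the day 6 libraries, nor Mmp25 and Adamts18 among those of day 14. They are among the 28 and entered through the age where they were high, so these counts are descriptions. By class, 6 metalloproteinases were higher and 4 lower of 12, 8 ADAMTS proteases higher and 7 lower of 18, and 2 TIMPs higher and 1 lower of 3. The median log2 fold change was 0.06 over the members and -0.01 over all genes. For 11 members the 20 values of day 14 and the 12 of day 6 did not overlap, and 9.45% of all genes shared that.

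Mmp3 (chromosome 9, positions 7445822 to 7455975, plus strand, 10 exons), a stromelysin that cuts proteoglycans and activates other metalloproteinases, had the largest change of the members. It had 4.35 CPM in the lowest, 9.83 in the highest library of day 14, with a mean of 7.20 ± 1.73 CPM (SD, n = 20). At day 6 the lowest library had 0 and the highest 0.700 CPM, with a mean of 0.288 ± 0.183 CPM (SD, n = 12), which rest on 0 to 7 reads per library. All 5 group means of day 14 lay between 5.48 and 8.66 CPM and all 3 of day 6 between 0.190 and 0.398 CPM. The log2 fold change was 4.63 (SE 0.19, edgeR adjusted p = 3.32e-21). Because Mmp3 passed the filter on low counts through day 14 alone, this p is a description. The neighbouring collagenase Mmp13 averaged 1.18 ± 0.603 CPM at day 14 and 0.658 ± 0.542 CPM at day 6, with wide overlap (log2 fold change 0.91, SE 0.29, edgeR adjusted p = 0.00690).

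Among the other metalloproteinases, Mmp28 averaged 20.5 ± 2.12 CPM at day 14 and 11.6 ± 1.60 CPM at day 6, without overlap (log2 fold change 0.83, SE 0.06, edgeR adjusted p = 4.05e-14). Mmp2 and Mmp15 were higher by log2 fold changes of 0.28 and 0.33, and Mmp19 by 0.27. Mmp19 was not called from unique reads (adjusted p = 0.230), nor between the saline groups alone, daily saline at day 14 against saline at day 6, where its log2 fold change was 0.02 (adjusted p = 0.898). The membrane-anchored Mmp14, Mmp16, Mmp17 and Mmp25 were lower, with log2 fold changes of -0.14, -0.53, -0.33 and -0.83, of which that of Mmp17 did not pass between the saline groups alone (log2 fold change -0.28, adjusted p = 0.183). The day 6 mean of Mmp25 includes the tamoxifen lungs, at 2.04 ± 1.01 CPM, beside 0.688 ± 0.169 CPM in Miglyol and 0.842 ± 0.365 CPM in saline lungs. Mmp14 moved against Mmp2: it averaged 306 ± 15.5 CPM at day 14 and 338 ± 19.1 CPM at day 6. Mmp11 and Mmp23 did not pass, at 87.0 ± 5.40 and 25.3 ± 2.64 CPM at day 14 and 89.9 ± 6.12 and 26.2 ± 3.85 CPM at day 6.

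**Figure D3:**
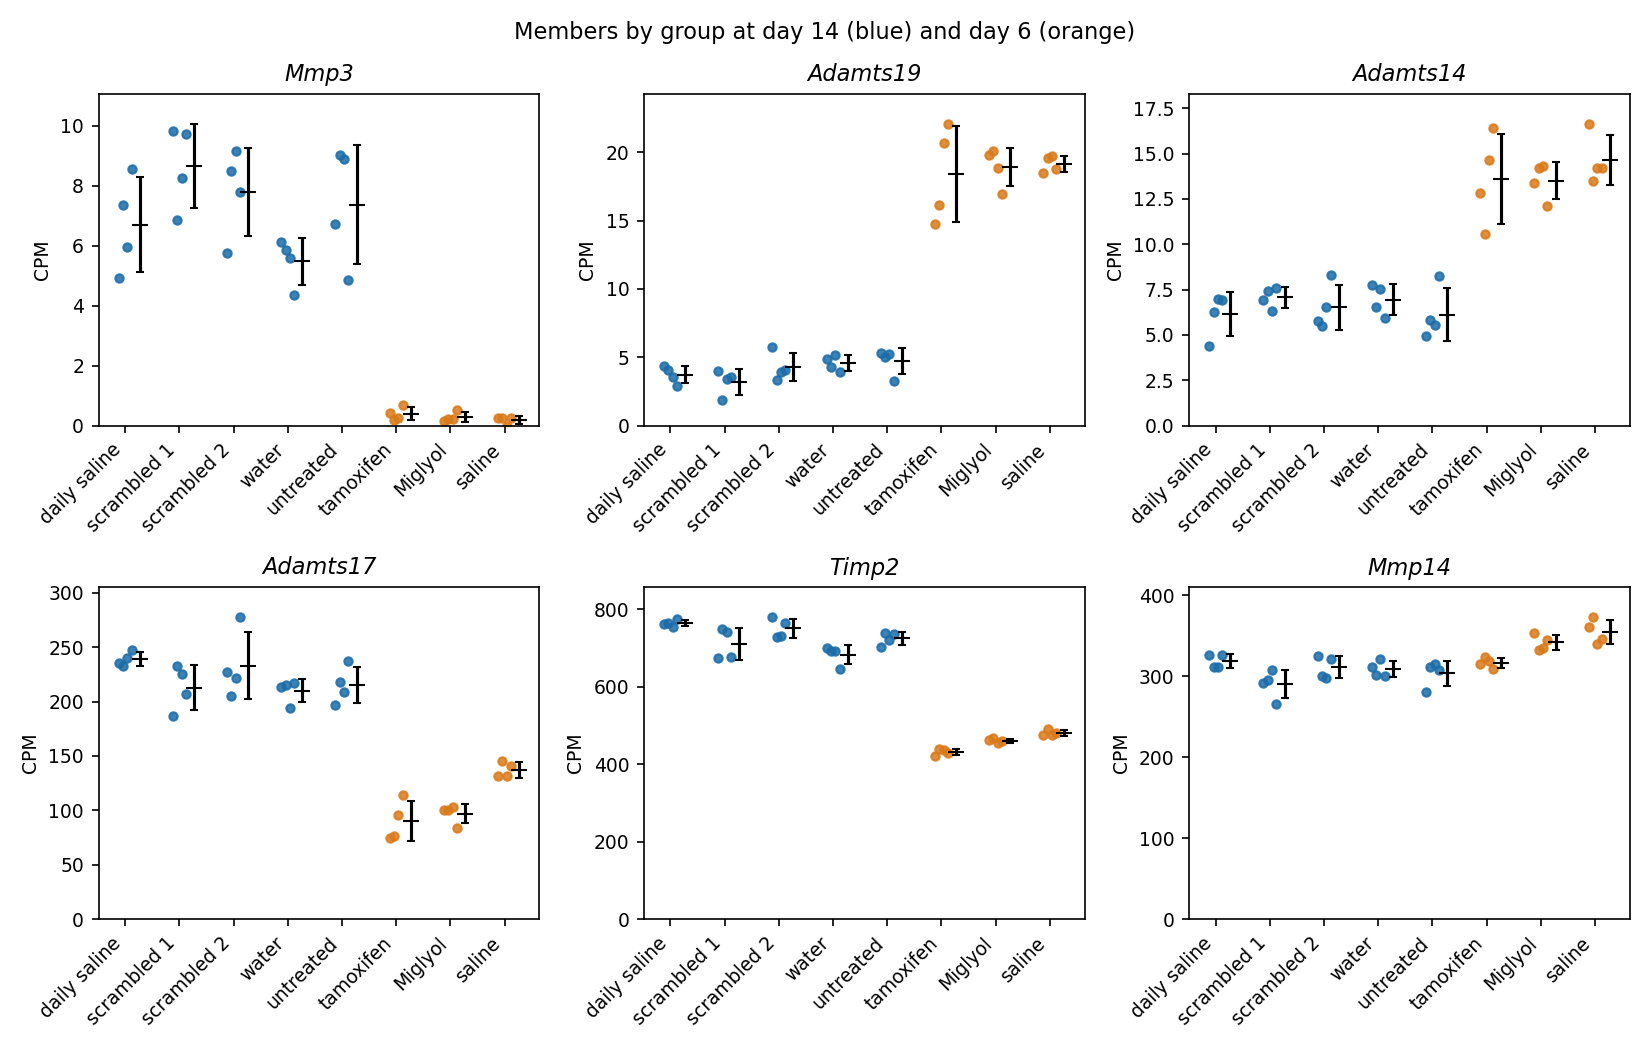
CPM of 6 members in the 5 groups of day 14 (blue) and the 3 groups of day 6 (orange), with 1 point per library and the mean and SD (n = 4) beside the points. Mmp3, Adamts17 and Timp2 are higher in every library of day 14, Adamts19 and Adamts14 are lower in every one, and the ages overlap for Mmp14.

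The ADAMTS proteases were divided. Adamts19, the closest relative of Adamts17 and without a well-known substrate, was the member with the largest fall. It had 1.86 CPM in the lowest and 5.76 in the highest library of day 14 (mean 4.09 ± 0.952) and 14.8 to 22.1 CPM at day 6 (mean 18.8 ± 2.03). The ages did not overlap, and the log2 fold change was -2.21 (SE 0.08, edgeR adjusted p = 2.36e-22). Adamts18 fell by 1.83 on the log2 scale, at 1 to 18 reads per library. It averaged 0.261 ± 0.111 CPM at day 14 and 0.985 ± 0.447 CPM at day 6. Of the procollagen N-proteinases, Adamts2 was higher at day 14, with 365 ± 21.7 CPM there and 208 ± 18.6 CPM at day 6 (log2 fold change 0.82, SE 0.03, edgeR adjusted p = 1.97e-22). Its relatives went the other way: Adamts14 averaged 6.56 ± 1.07 CPM at day 14 and 13.9 ± 1.67 CPM at day 6 (log2 fold change -1.08), and Adamts3 4.94 ± 0.737 and 7.04 ± 1.21 CPM (log2 fold change -0.51).

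Adamts17 averaged 222 ± 20.8 CPM at day 14 and 108 ± 24.4 CPM at day 6 (log2 fold change 1.06, SE 0.05, edgeR adjusted p = 6.52e-18). Adamts10 averaged 623 ± 76.4 CPM at day 14 and 383 ± 17.1 CPM at day 6 (log2 fold change 0.70, SE 0.04, edgeR adjusted p = 5.64e-16). Adamts6, the closest relative of Adamts10, was lower, with a log2 fold change of -0.30 (edgeR adjusted p = 1.04e-05). Versican-cutting members were mixed: Adamts5, Adamts15 and Adamts8 were higher by 0.73, 0.67 and 0.47 on the log2 scale, Adamts4 was lower at -0.34, and Adamts1, Adamts9 and Adamts20 did not pass. Adamts12 and Adamts13 were higher, with 0.56 and 1.07, and Adamts7 was lower with -0.51. The day 6 mean includes the tamoxifen lungs, where Adamts5 was low and Adamts8 high. Between the saline groups alone the log2 fold changes were 0.46 for Adamts5, 0.71 for Adamts15, 0.81 for Adamts8 and -0.54 for Adamts4. Adamts17 and Adamts10 had 0.80 and 0.49 there. In the comparison of the saline groups alone 20 of the 28 members called over all groups passed, and so did Adamts20, which makes 21. Adamts12 (log2 fold change 0.14, adjusted p = 0.107), Mmp17, Mmp19 and Timp1 did not pass, and Mmp13, Mmp25, Adamts13 and Adamts18 fell under the filter on low counts there.

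Of the inhibitors, Timp2 averaged 726 ± 37.2 CPM at day 14 and 457 ± 22.3 CPM at day 6, with no overlap (log2 fold change 0.67, SE 0.02, edgeR adjusted p = 9.80e-23). Timp3 averaged 598 ± 56.2 CPM at day 14 and 412 ± 63.2 CPM at day 6 (log2 fold change 0.54, SE 0.04, edgeR adjusted p = 3.89e-13). Timp1 was lower, with 4.16 ± 1.09 CPM at day 14 and 6.19 ± 0.914 CPM at day 6 (log2 fold change -0.57, SE 0.10, edgeR adjusted p = 1.03e-05), but it did not pass between the saline groups alone (adjusted p = 0.0803). All 28 calls held in the 32 fits that left out 1 library, and the count without water replicate 3 was 30.

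**Figure D4:**
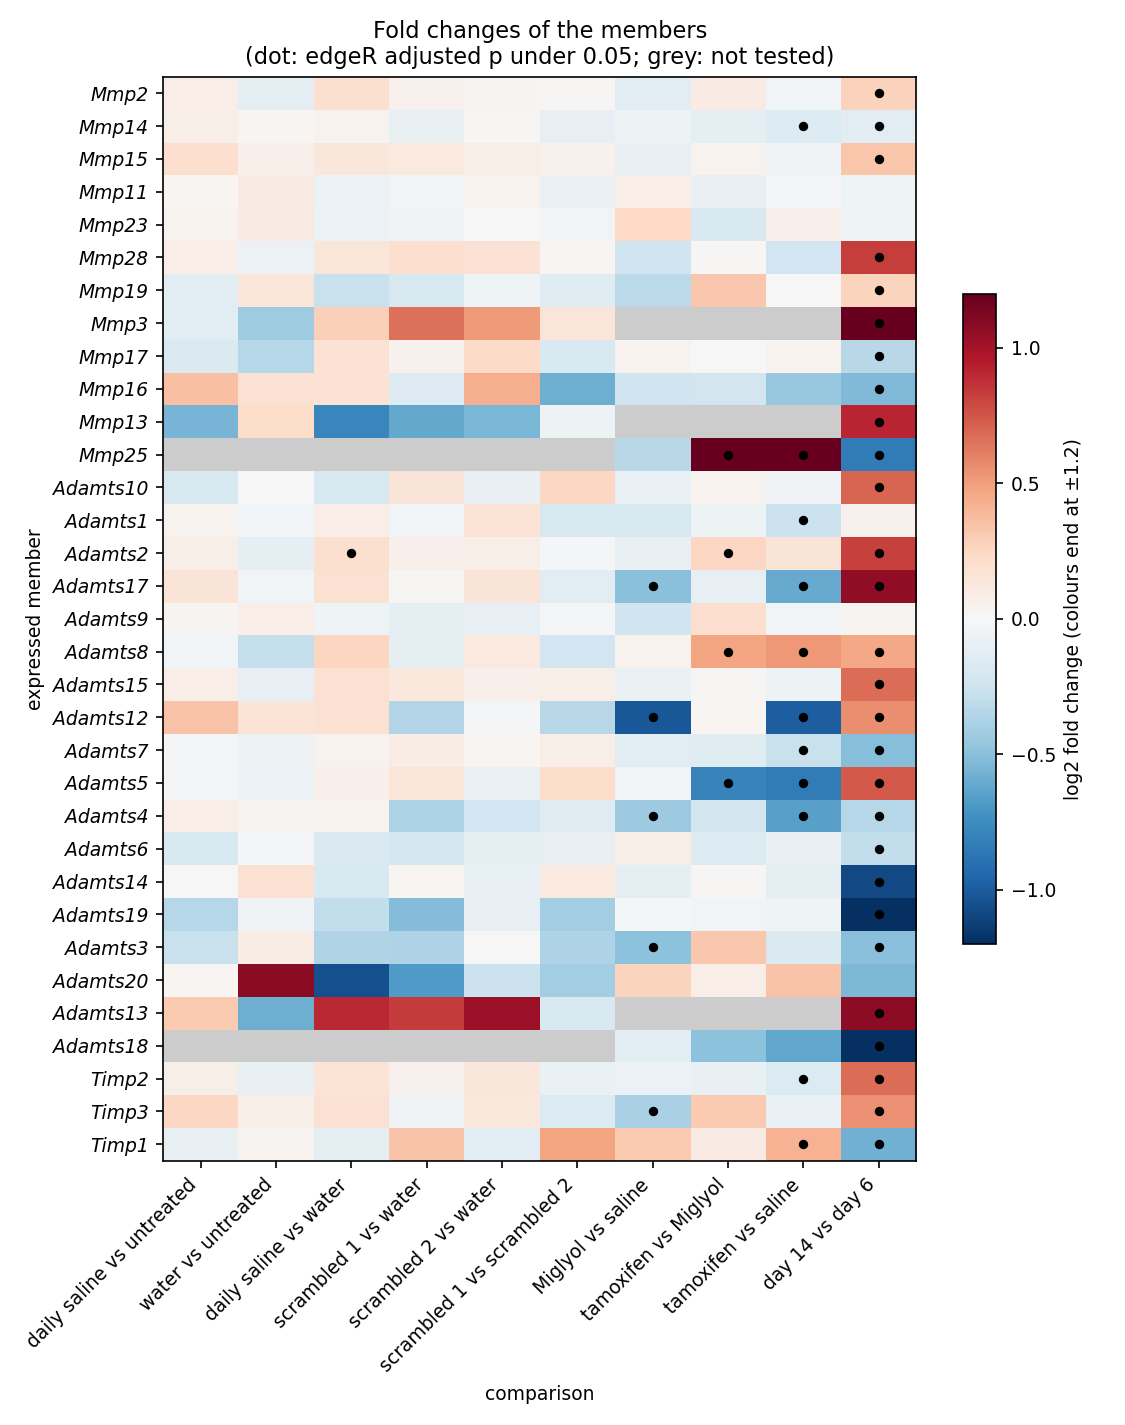
Log2 fold changes of the 33 expressed members (down the page) in the 10 comparisons (across), red for higher and blue for lower, with a dot where the edgeR adjusted p was under 0.05 and grey where a member was not tested. Dots are absent from 5 of the 6 comparisons of day 14 and fill most of the column of day 14 against day 6.

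A list of 56 further genes of this system was followed beside the members: activators, inhibitors and clearance receptors, related metalloproteinases, ADAMTS-like proteins and substrates. At day 14, 0 of 51 tested passed in each comparison but daily saline against water, where Serpine2, an inhibitor of plasminogen activators, was higher (478 ± 18.4 CPM in daily saline, 404 ± 9.72 CPM in water, edgeR adjusted p = 0.0218). Of all genes 2.74% passed in that comparison. In Miglyol against saline, 1 of 50 was higher and 8 lower, where 10.6% of all genes passed and 7.29% passed as lower. Among the lower were the clearance receptor Lrp1, which takes up proteases bound to inhibitors (log2 fold change -0.51), fibronectin Fn1 (-0.48), fibrillin Fbn1 (-0.40), nidogen Nid1 (-0.29) and Col4a1 (-0.27), and Adamtsl5 was higher (0.43). In tamoxifen against Miglyol, 6 of 50 were higher and 3 lower, against 3.71% and 1.96% of all genes. Among them Pappa2 (0.84), Adam8 (0.70), Plaur, the urokinase receptor (0.57), and Lrp1 (0.34) rose, and Fbn2 (-0.46) and Serpine2 (-0.30) fell. In tamoxifen against saline, 5 of 50 were higher and 15 lower, against 11.3% and 12.3% of all genes. They were led by Fbn2 (-0.69), Adam12 (-1.17), Plaur (0.76), the protease inhibitor A2m (-0.83), Adam8 (0.75) and Adam10 (-0.29). Adam8 and Plaur are also made by neutrophils, whose marker sums are given beside Mmp25.

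Between day 14 and day 6, 28 of 51 genes of that list were higher and 10 lower, against 30% and 31.3% of all genes. Elastin, Eln, averaged 10287 ± 1176 CPM at day 14 and 3745 ± 398 CPM at day 6 (log2 fold change 1.46, edgeR adjusted p = 2.40e-22). Versican, Vcan, the substrate of several ADAMTS proteases, averaged 74.7 ± 8.92 CPM at day 14 and 285 ± 56.0 CPM at day 6 (log2 fold change -1.92, edgeR adjusted p = 2.05e-20). The fetal fibrillin Fbn2 was lower as well (log2 fold change -1.40), while Adamtsl2 (2.27), the proprotein convertase Pcsk6 (0.76) and Col3a1 (0.60) were higher.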

How the data were processed

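Whole-lung RNA of 32 samples was sequenced from stranded mRNA libraries, per the labels' protocols. Per the submitters' processing notes, bcl2fastq 2.0 was used. No aligner, genome build or strand setting is named in the labels or file headers. The authors deposited 1 table per sample with whole-number counts of total and unique exon reads and of intron reads per gene, and TPM values. Total exon read counts (7918537 to 12443221 per library) were used for every test. TPM as deposited by the authors was used to compare levels between genes.

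Counts of all genes were fitted with edgeR 4.0.16 in R 4.3.3 (TMM, filterByExpr by group, robust quasi-likelihood F test), over the 20 libraries of day 14, the 12 of day 6, or all 32 for age, and p was adjusted by Benjamini-Hochberg over all genes tested. Standard errors were obtained as the absolute log2 fold change over the root of the F statistic. The fit was tested on simulated data. Of the 43 members 31 passed the filter at day 14, 30 at day 6 and 33 over both. A member passing through its high group alone had to differ, so counts of tested members are descriptions.

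Alternatives were DESeq2 1.42.0, RLE scaling, no filter, unique reads, a replicate block, Xist as a covariate (read from its introns), only the 8 samples compared, each library left out, and, added after seeing the data, the intronic read share. In each comparison every called member is named, or the 3 with the smallest p where none passed; Mmp2 and Timp2 in daily saline against water are named in addition. Members, lists and rules were chosen with earlier results of these data known. No replicate pair was a duplicate (chi-square per gene 2.38 to 16.6). Promoter windows of 30 members were taken from RefSeq GRCm38.p6.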

Additional observations from a re-analysis of the deposited data

Results flagged for a closer look

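In 264 sets of 4 libraries (each expressed member in each group), 15 held a library far from its other 3, which is 5.68%, and chance flags about 1 in 20 groups. Values are in CPM, with the range of the other 3 libraries of the group after each. High values were Timp3 in Scrambled 1 replicate 2 (614, others 545 to 555), Adamts1 in Scrambled 2 replicate 2 (310, others 285 to 288), Mmp3 in Miglyol replicate 4 (0.518, others 0.157 to 0.217), Mmp17 in untreated replicate 3 (6.4, others 4.56 to 4.83) and Mmp16 in saline replicate 4 of day 6 (3.62, others 3.06 to 3.10).

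Low values at day 14 were Timp2 in water replicate 4 (647, others 692 to 699), Adamts17 in water replicate 3 (194, others 213 to 217), Adamts15 in daily saline replicate 2 (111, others 120 to 121) and Adamts12 in daily saline replicate 3 (56.6, others 64.7 to 66.0). Further low values were Mmp19 in Scrambled 1 replicate 2 (8.94, others 15.5 to 16.2), Adamts19 in untreated replicate 4 (3.27, others 5.05 to 5.32) and Mmp25 in water replicate 2 (0.397, others 0.787 to 0.848). Low values at day 6 were Adamts17 in Miglyol replicate 4 (83.7, others 100 to 103), Mmp19 in saline replicate 3 (12.0, others 13.6 to 13.7) and Mmp3 in saline replicate 3 (0, others 0.247 to 0.265). The Adamts17 value of Miglyol replicate 4 enters a call of Miglyol against saline that was lost without that library.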

How the results depend on the processing

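Counts of members called in Scrambled 1 or 2 against water, Scrambled 1 against Scrambled 2 and water against untreated were 0 under every alternative run, and 0 to 0 with a library left out. DESeq2 gave no adjusted p for Mmp3, Adamts4 and Adamts3 in Scrambled 1 against water, nor for Mmp16 between the oligonucleotides. Daily saline against untreated gave 2 with DESeq2, which called 114 genes where edgeR called 33, and 0 elsewhere. Daily saline against water, with 1 call, gave 3 with DESeq2, 0 without a filter, 0 with the intronic share, 0 with the Xist covariate, and 0 to 0 with a library left out. Over all genes its 389 calls became 582, 325, 13, 356, and 28 to 276 in the same settings. Miglyol against saline, with 5, gave 3 without a filter, 0 with the intronic share, 8 from the 8 samples compared alone, and 0 to 4 with a library left out. Over all genes its 1498 calls became 1318, 2, 2573, and 308 to 1729. Tamoxifen against Miglyol, with 4, gave 2 from its 8 samples alone and 2 to 7 with a library left out. Over all genes its 801 calls became 488, and 429 to 1188. Tamoxifen against saline, with 11, gave 5 with the intronic share, 7 from its 8 samples alone and 5 to 10 with a library left out. Over all genes its 3343 calls became 1190, 2868, and 1991 to 3924. Day 14 against day 6, with 28, gave 21 to 30, while its 8842 calls over all genes became 6418 to 9086. The cause of these shifts was not tested. Signs were followed for the called members, or the 3 with the smallest p where none passed, and none of these reversed. Of the uncalled members, Adamts1, Adamts9 and Mmp23 changed sign between the age fit over all groups and that over the saline groups alone.

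The replicate numbers did not pair the libraries: the correlation of same-numbered deviations lay between -0.402 and 0.482, and in no comparison were all above 0.1. With a replicate block, Miglyol against saline gave 1 call, tamoxifen against Miglyol 2 and tamoxifen against saline 6, where 461, 565 and 2475 of all genes passed. The other counts stayed within 1 of the reported ones. Members under 1 CPM rest on few reads, which limits what can be seen for them.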
